A study of Mus musculus with 2 samples.

Results

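Annexins, S100 proteins and galectins are families of small lipid-, calcium- or sugar-binding proteins, and their genes were taken by symbol from RNA sequencing of mouse heart tissue. The symbols Anxa followed by a number, S100 followed by a letter, and Lgals followed by a number matched 38 of the 24346 genes listed, after S100a8 and S100a9 were left out. They comprised 12 annexins, 16 symbols that begin with S100 and 10 that begin with Lgals. S100pbp and Lgals3bp were matched by name only: their products bind an S100 protein and galectin-3, and are themselves neither. Heart tissue treated with probucol, a cholesterol-lowering antioxidant, was compared with untreated heart tissue. Both samples carry the labels HFD-MI (a high-fat diet and, by the title of the series, myocardial infarction) and day 14, which do not say from which event the days run. Each group has 1 library, so no difference here has a replicate check, and every statement describes these libraries. The labels do not state the genotype, strain or sex, the region of the heart or the number of animals behind each library. The authors' names for both data sets also hold the marks HypoE and CM, which no label explains.

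Annexins bind membranes rich in acidic phospholipids when calcium rises, and act in membrane traffic, membrane repair and the control of inflammation. S100 proteins are small calcium sensors with EF-hand motifs that mostly form dimers; some of them bind annexins and bridge membranes, and some are released from cells. Galectins bind galactose-containing sugars on glycoproteins inside and outside cells. In the injured heart, several members of each family are known as products of macrophages and fibroblasts, whereas S100a1 is a protein of the heart muscle cell.

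Levels are in FPKM, the fragments of a gene per kilobase of its transcript after scaling for library size, and a ratio is log2((FPKM probucol + 0.5)/(FPKM untreated + 0.5)) unless stated otherwise. A gene was called measured at a mean of at least 0.5 FPKM, and lower or higher at a difference of at least 1.5-fold. Depths were similar: for a transcript with an effective length of 1 kb, 1 FPKM stood for 6.68 fragments with probucol and 7.45 without. FPKM of at least 0.5 were listed for 12657 genes with probucol and 12941 without. As a check of the heart label, all 14 cardiomyocyte markers were measured, with a summed level of 100037 FPKM with probucol and 72361 without.

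Most measured members were lower in the probucol library. Of 38 members, 26 were measured; 15 of these were lower and 1 was higher. Among all 12882 measured genes, 12.0% were lower and 5.52% were higher by the same limit. When the FPKM of both libraries were rescaled to the same sum, 15.8% of all genes were lower and 2.97% higher, and the counts of members were again 15 and 1. At a limit of 2-fold, 5 members were lower and 0 higher, against 5.14% and 1.07% of all measured genes. The median ratio was -0.70 over the measured members and 0.01 over all measured genes. The medians by family were -0.72 for 11 annexins, -0.69 for 9 S100 symbols and -0.70 for 6 Lgals symbols. Without the entries matched by name only, 13 of 24 members were lower, and the medians were -0.53 for 8 S100 genes and -0.69 for 5 galectins.

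The lower members were not confined to weakly expressed genes. Of the 20 members with a mean of at least 5 FPKM, 13 were lower and 0 higher, with a median ratio of -0.73, beside 8.39% lower among all genes of that level. Of the 13 members with a mean of at least 50 FPKM, 9 were lower, beside 7.72% of all genes of that level.

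**Figure D1:**
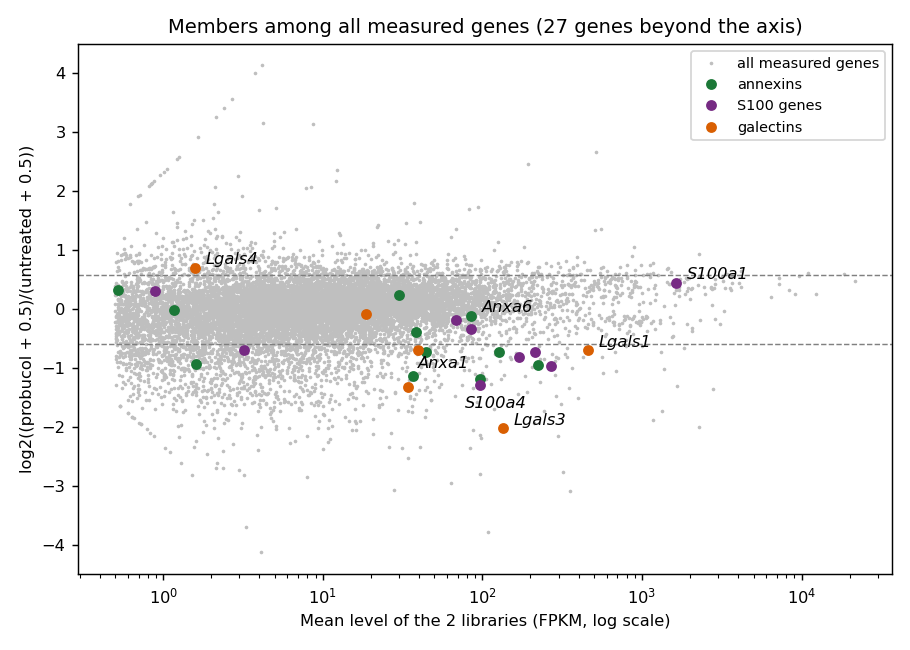
Each grey point is a measured gene, with the mean level of the 2 libraries on the horizontal log axis (FPKM) and the log2 ratio of probucol over untreated, with 0.5 FPKM added to both, on the vertical axis; dashed lines mark 1.5-fold, and 27 genes lie beyond the axis. Most annexins, S100 genes and galectins above 10 FPKM lie below the lower dashed line, with Lgals3 the lowest at -2.02, and S100a1 lies above 0 at the far right.

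Galectins gave the lowest ratio of the set. Lgals3 encodes galectin-3, the galectin with a collagen-like tail that activated macrophages make in quantity (chromosome 14, 47373860 to 47386167, GRCm38). It had 52.5 FPKM with probucol and 215 FPKM without, 4.07-fold lower, and was the 69th lowest of the 12882 measured genes. By its shorter curated transcript these levels stand for 382 fragments with probucol and 1744 without, and the 95% counting interval of the FPKM ratio ran from 0.218 to 0.273. Lgals3bp, a secreted scavenger-receptor-like glycoprotein that binds galectin-3, had 19.2 FPKM with probucol and 48.7 FPKM without (ratio -1.32; 272 fragments with probucol and 769 without). Both genes were lower, but not in step: Lgals3bp stood at 0.366 of the Lgals3 level with probucol and at 0.226 without.

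Lgals1 was the most abundant galectin in both libraries. It encodes galectin-1, a dimeric galectin of fibroblasts, vessels and immune cells, and had 349 FPKM with probucol and 568 FPKM without, 1.63-fold lower. These levels rest on 1375 fragments with probucol and 2499 without, and the counting interval of the FPKM ratio ran from 0.574 to 0.656. The level of Lgals1 was 6.64 times that of Lgals3 with probucol and 2.64 times without. Lgals9, whose product has paired sugar-binding domains and is known as a ligand of the receptor Tim-3, had 30.0 FPKM with probucol and 48.8 FPKM without (ratio -0.69). Lgals8, another galectin with paired domains that marks damaged vesicles, had 18.1 FPKM with probucol and 19.3 FPKM without, and its counting interval, from 0.728 to 1.22, includes no difference.

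Lgals4, a galectin mainly of the gut lining, was the 1 member called higher, and it rests on few fragments. It had 2.07 FPKM with probucol and 1.09 FPKM without, from 16 fragments with probucol and 10 without, with an interval of the ratio from 0.762 to 4.40 that includes no difference. Lgals6 is a near-identical copy of Lgals4, so reads could be split between them. It is the 1 member absent from the annotation used here, so its fragments were not estimated. Lgals6 was listed at 0.410 FPKM with probucol and at 0 without, and the sum of both genes was 2.48 FPKM with probucol and 1.09 FPKM without. Lgals2 was listed at 0 with probucol and at 0.698 FPKM without, from 2 fragments. Lgals7 and Lgals12 were listed at 0 in both libraries.

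Among 11 measured annexins, 6 were lower, and the other 5 differed by less than 1.5-fold. Anxa1 encodes annexin A1, which glucocorticoids induce and which limits leukocyte recruitment through formyl peptide receptors (chromosome 19, 20373434 to 20390671). It had 58.4 FPKM with probucol and 133 FPKM without, 2.27-fold lower, from 571 fragments with probucol and 1456 without, with a counting interval of the FPKM ratio from 0.396 to 0.482. Anxa4, an annexin best known from epithelia, had 22.9 FPKM with probucol and 50.9 FPKM without (ratio -1.14). Anxa1 and Anxa4 were the 2 annexins past 2-fold.

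Anxa2 was the most abundant annexin. Its product pairs with S100a10 at the cell surface, where plasminogen is activated (chromosome 9, 69453683 to 69491792). It had 152 FPKM with probucol and 294 FPKM without, 1.93-fold lower, from 1260 fragments with probucol and 2713 without, with an interval from 0.484 to 0.554. Anxa5, whose product covers phosphatidylserine on dying and torn membranes, had 94.9 FPKM with probucol and 158 FPKM without (ratio -0.74). Anxa3 had 33.2 FPKM with probucol and 55.2 FPKM without (ratio -0.72). Anxa8 was also called lower, at 0.938 FPKM with probucol and 2.24 FPKM without, but it rests on 6 fragments with probucol and 17 without by its shorter transcript, and its interval, from 0.127 to 1.05, includes no difference.

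The remaining annexins differed by less than 1.5-fold. Anxa6, the annexin with duplicated repeats that is abundant in heart muscle, had 81.1 FPKM with probucol and 87.7 FPKM without (ratio -0.11). Its counting interval of the FPKM ratio ran from 0.857 to 0.999. Anxa7 had 33.2 FPKM with probucol and 43.7 FPKM without (-0.39), with a counting interval from 0.685 to 0.848, all below 1. Anxa11, an annexin that links RNA granules to lysosomes, had 32.7 FPKM with probucol and 27.6 FPKM without (0.24). The interval of Anxa11, from 1.04 to 1.35, lay all above 1. The distances between annexins differed between the libraries, while Anxa2, Anxa5 and Anxa6 kept their order: Anxa2 stood at 1.88 times the level of Anxa6 with probucol and at 3.36 times without, and Anxa5 at 1.17 times with probucol and 1.81 times without. Anxa13 had 1.16 FPKM with probucol and 1.17 FPKM without, Anxa9 had 0.636 FPKM with probucol and 0.407 FPKM without, and Anxa10 was listed at 0 in both.

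**Figure D2:**
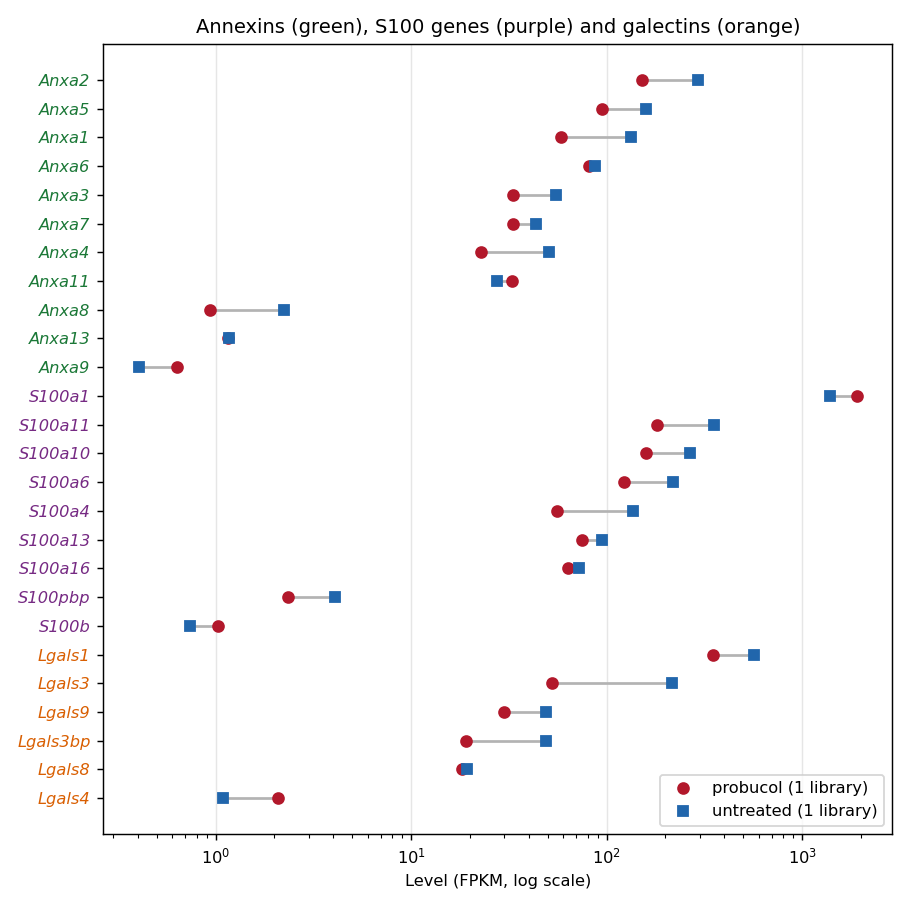
Level of each measured member in the probucol library (red circle) and the untreated library (blue square), in FPKM on a log axis; each group has 1 library, and names are coloured by family. The blue squares of Lgals3, Anxa1, Anxa2, Anxa4, S100a4 and S100a11 lie well to the right of the red circles, while the symbols of Anxa6, Anxa13, S100a16 and Lgals8 nearly overlap.

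S100a1 was the most abundant S100 gene in both libraries and, with S100b, 1 of the 2 measured S100 genes with a ratio above 0. Its product is the S100 protein of cardiomyocytes, which binds the ryanodine receptor and the calcium pump of the sarcoplasmic reticulum. S100a1 had 1898 FPKM with probucol and 1390.0 FPKM without (ratio 0.45, within the limit of 1.5-fold), and made up 53.6% of the summed level of the members with probucol and 32.4% without. The levels stand for 5922 fragments with probucol and 4837 without, and the counting interval of the FPKM ratio ran from 1.31 to 1.42. Beside it, the cardiomyocyte markers had a median ratio of 0.46, with 2 of 14 at least 1.5-fold higher and 0 lower. S100a1 amounted to 1.90% of their summed FPKM with probucol and 1.92% without.

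The S100 genes that partner annexins or go with growth and migration were lower. S100a4, a protein of migrating cells that fibroblasts and macrophages express, had 55.5 FPKM with probucol and 136 FPKM without, 2.44-fold lower, from 107 fragments with probucol and 292 without. S100a11, which binds annexin A1, had 181 FPKM with probucol and 353 FPKM without, 1.95-fold lower. S100a6, known as calcyclin, had 123 FPKM with probucol and 217 FPKM without, 1.76-fold lower. S100a10, the partner of annexin A2, had 159.9 FPKM with probucol and 266 FPKM without, 1.66-fold lower. Their counting intervals of the FPKM ratio lay between 0.324 and 0.670, all below 1. S100pbp had 2.34 FPKM with probucol and 4.10 FPKM without (ratio -0.69).

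In 2 known pairs of an annexin and an S100 protein, both genes were lower, but the partners were not the closest in ratio. S100a10 (-0.73) lay nearer to Anxa5 (-0.74) than to Anxa2 (-0.95), and S100a11 (-0.97) nearer to Anxa2 than to Anxa1 (-1.19). The counting intervals of the partners overlapped, so these orders are not firm. They were 0.538 to 0.670 for S100a10 and 0.484 to 0.554 for Anxa2. Those of the other pair were 0.450 to 0.579 for S100a11 and 0.396 to 0.482 for Anxa1. S100a10 stood at 1.05 times the level of Anxa2 with probucol and at 0.903 times without. S100a11 stood at 3.10 times the level of Anxa1 with probucol and at 2.65 times without. By contrast, S100a11 amounted to 0.0952 of the S100a1 level with probucol and 0.254 without. FPKM of S100 genes depend more on the assumed fragment length than those of annexins, since their transcripts are short (498 bases for S100a4 and 685 bases for S100a10, beside 1447 bases for Anxa2). Ratios of 1 gene between libraries do not if both libraries have the same fragment lengths, which was not checked.

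S100a13 and S100a16 differed by less than 1.5-fold. S100a13, which takes part in the release of fibroblast growth factor 1, had 75.1 FPKM with probucol and 95.1 FPKM without (ratio -0.34; 253 fragments with probucol and 358 without), and its counting interval, from 0.668 to 0.929, lay below 1. S100a16 had 63.4 FPKM with probucol and 72.2 FPKM without (ratio -0.19). S100b, a protein of glia that heart tissue can also induce, had 1.03 FPKM with probucol and 0.737 FPKM without, from 9 fragments with probucol and 7 without, too few to show a difference. S100a3 was listed at 0 with probucol and at 0.531 FPKM without, and S100a7a at 0.561 FPKM with probucol, from 4 fragments, and at 0 without. S100a2, S100a5, S100a14, S100g and S100z were listed at 0 in both.

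**Figure D3:**
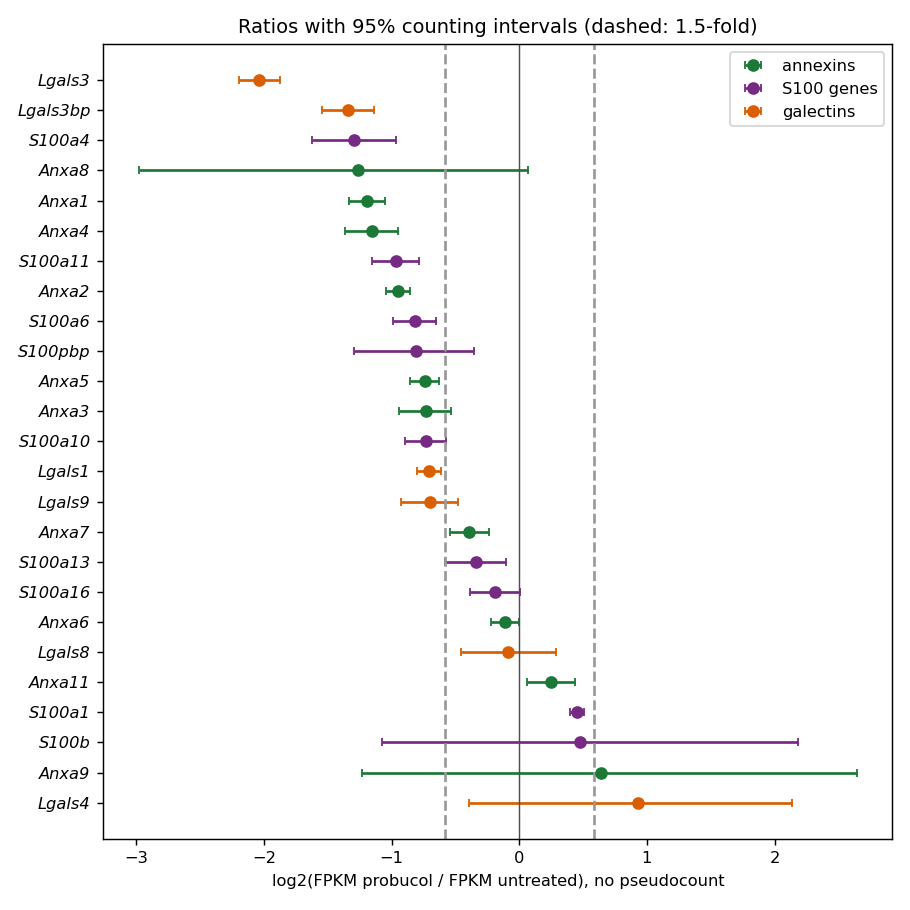
Log2 ratio of FPKM (probucol over untreated, no pseudocount) of the 25 measured members for which fragments could be estimated, with 95% counting intervals as bars; dashed lines mark 1.5-fold, and genes with several curated transcripts use the shortest. Intervals are narrow for abundant genes such as S100a1 and Anxa2 and wide for Anxa8, Anxa9, S100b and Lgals4.

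The S100 genes share a place in the genome that the choice by name did not use. Of the 16 symbols, 12 lie on chromosome 3: 10 within 147 kb (90511034 to 90658130, GRCm38) and S100a11 with S100a10 within 44.1 kb further along (93520496 to 93564645). Neighbours there differed in level and in direction. In chromosome order, the ratio was 0.45 for S100a1, -0.34 for S100a13, -0.19 for S100a16, -1.29 for S100a4 and -0.82 for S100a6, and genes between them were near or at 0 FPKM. In the second block the ratio was -0.97 for S100a11 and -0.73 for S100a10.

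**Figure D4:**
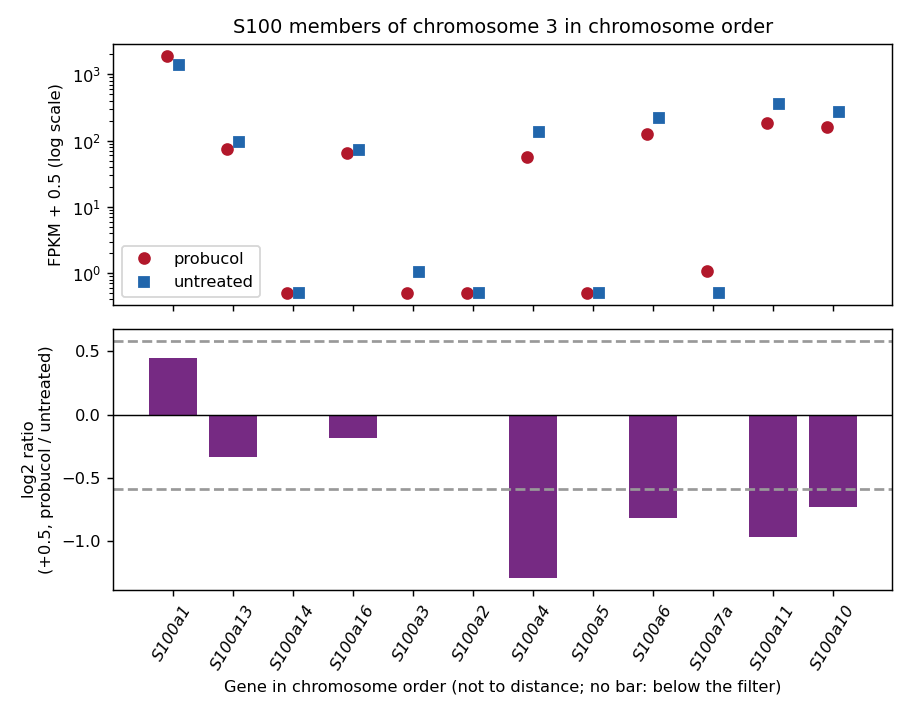
The 12 S100 genes of chromosome 3 in chromosome order, not to distance; the upper panel gives FPKM + 0.5 on a log axis in the probucol (red circle) and untreated (blue square) libraries, and the lower panel the log2 ratio of measured genes, with 1.5-fold as dashed lines. S100a1 at the left end is the 1 bar above 0, and S100a4 is the lowest bar at -1.29.

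S100a1 and S100a13 start next to each other on opposite strands, with 104 bases between their RefSeq starts. The 42 bases that lie before both starts in RefSeq and in GENCODE M21 (chr3:90514393-90514434, plus strand, GRCm38.p6 of RefSeq) are shown because these neighbours had ratios on opposite sides of 0. Neither the 104 nor the 42 bases hold any motif searched. A predicted S100a13 model of RefSeq begins earlier and overlaps S100a1 from 90514233 to 90514330. The library kit keeps strand, but no source used here says whether the counting did, so reads of the overlap may be shared.
S100a1 and S100a13: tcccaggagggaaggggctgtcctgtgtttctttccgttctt
The level of S100a1 was 25.3 times that of S100a13 with probucol and 14.6 times without.

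The promoters of the lowest member of each family are shown because these genes were lower together. They are the 250 bases before the RefSeq start (GRCm38.p6), 5′ to 3′ on the gene's strand, with matches to the motifs searched in capitals: chr14:47373610-47373859 (plus strand) for Lgals3, chr19:20390672-20390921 (minus strand) for Anxa1 and chr3:90603520-90603769 (plus strand) for S100a4.
Lgals3: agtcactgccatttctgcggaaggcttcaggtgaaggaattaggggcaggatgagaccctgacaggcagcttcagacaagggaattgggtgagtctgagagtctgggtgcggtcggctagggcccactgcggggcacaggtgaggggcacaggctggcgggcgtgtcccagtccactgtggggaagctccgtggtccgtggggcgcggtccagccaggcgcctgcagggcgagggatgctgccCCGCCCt
Anxa1: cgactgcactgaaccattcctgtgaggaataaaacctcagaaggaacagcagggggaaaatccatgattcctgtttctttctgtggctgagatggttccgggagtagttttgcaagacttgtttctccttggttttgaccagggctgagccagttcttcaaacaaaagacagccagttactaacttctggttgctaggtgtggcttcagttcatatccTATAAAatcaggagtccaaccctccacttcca
S100a4: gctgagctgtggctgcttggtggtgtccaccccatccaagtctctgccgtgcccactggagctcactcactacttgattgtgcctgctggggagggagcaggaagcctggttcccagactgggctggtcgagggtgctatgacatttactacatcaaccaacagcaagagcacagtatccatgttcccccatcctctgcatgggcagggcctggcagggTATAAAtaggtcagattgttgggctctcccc
Anxa1 and S100a4 each hold TATAAA, which begins 32 bases before the start of Anxa1 and 31 bases before the start of S100a4. Lgals3 holds no TATAAA and has a GC box, read on the other strand, 7 bases before its start.

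The table of promoters matched 29 of the 38 members, among them 12 of the 15 lower ones and 9 of the 11 other measured ones. Both strands were searched, and no matches overlapped in the sequences shown. TATAAA was present in 3 of the 12 lower members (Anxa1, Anxa2 and S100a4) and in 0 of the 9 others, and in 12.4% of all 32851 promoter windows of the same length. The AP-1 motif TGANTCA was present in 2 of the lower members (Anxa2 and S100a11) and 1 of the others (S100a16), and in 6.75% of all windows. The GC box GGGCGG was present in 4 lower members and 3 others, and in 32.7% of all windows. GAGGAAG, the core bound by the macrophage factor PU.1, was present in 1 lower member (Lgals9) and 2 others (Anxa9 and Lgals4), and in 10.6% of all windows. The motif of the muscle factor MEF2, CTA and TAG with 4 bases between them, was present in 0 of either group and in 3.20% of all windows. A member was counted if any of its windows held the motif, whereas the shares of all windows count each window by itself, so the measures are not alike. These counts describe letters in the windows and were not tested.

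Genes that work with the members or their families were listed in 7 groups. Of 71 measured genes outside the set, 19 were lower and 1 higher, with a median ratio of -0.22. Over all measured genes, 12.0% were lower and 5.52% higher, with a median of 0.01. The lists are short, and the same shares of all genes stand behind each of their counts. Plasminogen activation at the complex of annexin A2 and S100a10 had the lowest median of the groups with more than 1 measured gene, at -0.87, with 5 of 7 lower. Plau, the urokinase, had 3.99 FPKM with probucol and 9.97 FPKM without (-1.22), and Plaur, the urokinase receptor, had 3.90 FPKM with probucol and 7.55 FPKM without (-0.87). Eno1, a glycolytic enzyme that binds plasminogen, had -0.94, but with its near-identical copy Eno1b the sum had -0.45, so its call is uncertain. The 5 lower genes and the median of -0.87 include Eno1 at its own ratio.

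Several receptors and ligands of the members were lower as well. Fpr2, the main annexin A1 receptor, had 0.824 FPKM with probucol and 1.60 FPKM without (-0.67), and of 6 listed formyl peptide receptors it was the only one measured. The level of Fpr2 is low, its fragments were not estimated and its ratio lies near the limit of 1.5-fold, so its call is uncertain. Of 19 galectin ligands and glycan-branching genes, 6 were lower and 0 higher, with a median of -0.30. Havcr2, the gene of Tim-3, had 0.594 FPKM with probucol and 4.84 FPKM without (-2.29), and Ptprc, the leukocyte phosphatase CD45, had 4.03 FPKM with probucol and 12.0 FPKM without (-1.47). Fn1, which encodes fibronectin, had 12.7 FPKM with probucol and 34.4 FPKM without (-1.40), and Mertk, a phagocyte receptor tyrosine kinase, had 3.17 FPKM with probucol and 7.72 FPKM without (-1.16). Of 8 measured surface proteins tied to extracellular S100 proteins, 4 were lower, at -2.35 for Cd68, -1.33 for Alcam, -0.74 for Mcam and -0.63 for Sdc4, and 0 were higher. This list was not split by S100 protein, so its genes need not bind a member of the set. Cd68 and Mertk are also among the macrophage markers given below.

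Of 17 measured membrane repair genes, 1 was lower and 0 higher, with a median of -0.08, near the shares and the median of all measured genes. The lower gene was Myof, the ferlin myoferlin, with 2.92 FPKM with probucol and 8.49 FPKM without (-1.39), while Dysf, the muscle ferlin dysferlin, had 19.4 FPKM with probucol and 13.8 FPKM without (0.48). Of 13 measured genes of phosphatidylserine recognition, 3 were lower, at -1.24 for Stab1, -1.16 for Mertk and -1.02 for Timd4, and 0 were higher. Of 8 measured cardiac targets of S100a1, among them the cardiomyocyte markers Ryr2, Pln and Ttn, 1 was higher and 0 lower, with a median of 0.32. The higher gene was Pygm, the muscle glycogen phosphorylase, with 458 FPKM with probucol and 278 FPKM without (0.72), and Atp2a2, the calcium pump, had 3746 FPKM with probucol and 2570.4 FPKM without (0.54).

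**Figure D5:**
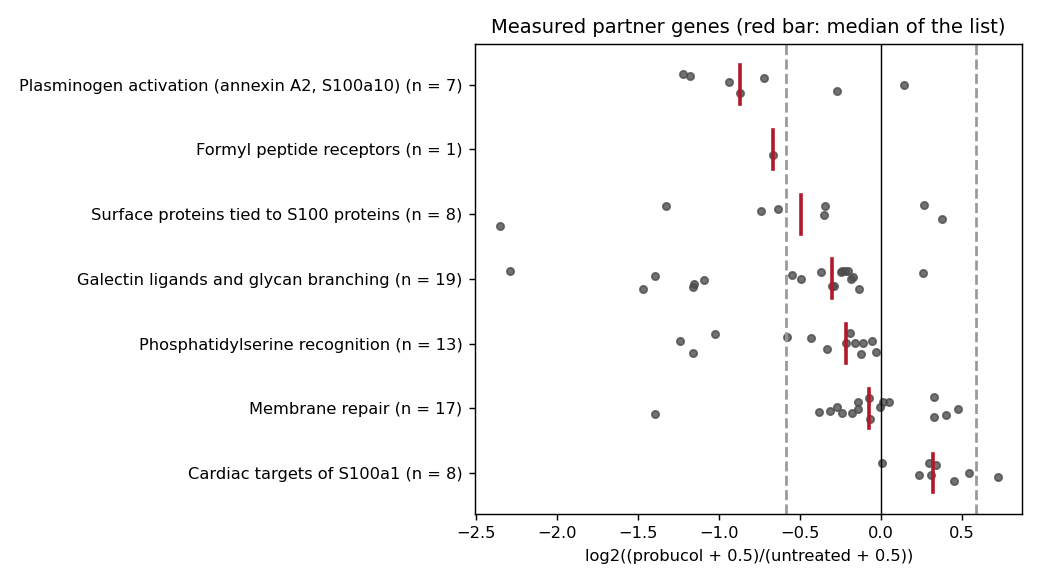
Each point is a measured partner gene outside the set, placed by its log2 ratio of probucol over untreated with 0.5 FPKM added to both; red bars are the medians of the lists, and dashed lines mark 1.5-fold. The plasminogen list lies furthest left of the lists with more than 1 gene, with a median of -0.87, membrane repair is centred near 0 at -0.08, and the targets of S100a1 lie to the right at 0.32. The plasminogen median includes Eno1, whose call is uncertain.

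Macrophage and fibroblast markers were lower, as were most measured members, whereas endothelial, smooth muscle and pericyte markers had medians near that of all measured genes. The part of any cell type in these results was not tested. In bulk tissue, fewer cells of a type and less RNA per cell cannot be told apart. All 15 macrophage markers were lower in the probucol library (median -1.52), with a summed level of 1136 FPKM with probucol and 3734 FPKM without, and 0 markers at 0. Of 13 fibroblast markers, 10 were lower (median -0.83), with a summed level of 1086.0 FPKM with probucol and 1865 FPKM without. Endothelial markers, 12 in all, had a median of 0.01 and a summed level of 433 FPKM with probucol and 442 FPKM without, and 12 smooth muscle and pericyte markers had a median of -0.08.

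Set against these sums, members differed from each other. Lgals3 amounted to 4.63% of the macrophage marker sum with probucol and 5.76% without, the 1 measured member for which this share was lower with probucol. That sum is weighted to abundant markers: Lyz2 had 1831 FPKM without probucol, and the ratio of Cd68, at -2.35, was below that of Lgals3. Against the fibroblast marker sum, Lgals3 amounted to 4.84% with probucol and 11.5% without. Lgals1 amounted to 32.1% of the fibroblast marker sum with probucol and 30.5% without, and S100a10 to 14.7% with probucol and 14.2% without. S100a6 amounted to 11.3% of it with probucol and 11.6% without, S100a4 to 5.11% with probucol and 7.30% without, and Anxa1 to 5.38% with probucol and 7.15% without. Against the macrophage marker sum, S100a4 and Anxa1 went the other way, at 4.88% and 5.14% with probucol and 3.65% and 3.57% without. Of the other cell types a heart sample can hold, 7 of 8 monocyte markers were lower (median -1.13), as were 5 of 8 neutrophil markers with 2 higher. Of 7 platelet markers, 4 were higher and 1 lower. Schwann cell, adipocyte, epithelial and T cell lists had 6, 4, 3 and 4 measured markers, with medians of -0.08, 0.22, -0.40 and -0.53, and Lep, Adrb3, Upk1b, Krt5 and Krt14 were listed at 0 in both libraries. The Schwann cell list holds S100b, which is itself a member of the set.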

How the data were processed

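Per the labels, total RNA of heart tissue came from a miRNeasy extraction and went into TruSeq stranded mRNA libraries. TopHat2 (2.1.1), Bowtie2, Cuffdiff (2.2.1) and mm10 appear in the submitters' processing notes, which give neither their roles nor the annotation, the scaling between libraries or the strand setting. The authors deposited 1 FPKM value per gene and library. Ratios used a pseudocount of 0.5, no rescaling and genes with a mean of at least 0.5 FPKM (Python 3.11.15, pandas 2.3.3). With 1 library per group no test, SD or p-value exists. Fragments were recovered from the steps of low FPKM with 210 bases subtracted from the transcript length: equal fragment numbers gave a ratio of 1.12 between libraries in 239 of 1337 low genes, within 0.3%. Of values under 6.5 fragments, 75.7% with probucol and 74.3% without lay within 0.1 of a whole number. Intervals are exact binomial (Clopper-Pearson, scipy 1.17.1, 95%) and hold counting error alone. PCR copies are no independent molecules, so the intervals may be too narrow. The procedure was also run on simulated libraries built from the same steps, lengths and whole fragments, so that run does not test departures from them. Annotation was RefSeq GRCm38.p6 with GENCODE M21 lengths, which match mm10.

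Members, lists and limits were chosen with earlier results of these data known. All measured members are named; of partner lists, up to 4 genes past 1.5-fold with the largest ratio, or the 2 with the largest ratio where fewer than 2 pass. A gene that this rule names is not reported here. Alternatives covered the pseudocount, filter, scaling, limit, names and fragment length.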

Additional observations from a re-analysis of the deposited data

How the results depend on the processing

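No paired analysis was possible because each group has 1 library. The count of 15 lower members was the same under each pseudocount and scaling tried, was 13 among genes of at least 5 FPKM, 17 with no filter, and fell to 5 at a limit of 2-fold, which is the stricter limit itself. The count of higher members was 0 with a pseudocount of 1, at a mean of at least 5 FPKM and at 2-fold, and 3 with no filter, where Lgals6 and S100a7a join Lgals4; with a pseudocount of 1 the ratio of Lgals4 was 0.56, the 1 change of call among 200 single values of 26 members. With no filter, members at 0 in both libraries moved the medians to -0.56 for annexins, -0.093 for S100 genes and -0.39 for galectins. Rescaling to the same sum moved them to -0.87, -0.82 and -0.84, with the median of all genes at -0.13, and left 0 higher partner genes. The count of lower partner genes, 19 in the main setting, was 23 after this rescaling. It was 18 with a pseudocount of 1 and 15 at a mean of at least 5 FPKM. Without S100pbp the S100 median was -0.53. The direction of each measured member was the same under all of these. Subtracting 150 or 270 bases moved 0 of 15 fragment ratios beyond its counting interval. This could hardly come out otherwise, because the same subtraction was used for both libraries and cancels in the ratio of a gene, apart from rounding. Depth limits Anxa8, Anxa9, S100b and Lgals4.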

Other observations

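S100a8 and S100a9, the neutrophil and monocyte alarmins left out of the set, lay on the other side of 0 from most S100 genes. S100a8 had 73.9 FPKM with probucol and 52.4 FPKM without, and S100a9 had 64.9 FPKM with probucol and 42.4 FPKM without, with ratios of 0.49 and 0.61.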
